A study of Danio rerio with 4 samples.

Results

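Pre-mRNA splicing factors and heterogeneous nuclear ribonucleoproteins (hnRNPs) were followed in cells sorted as endothelium from the zebrafish caudal hematopoietic tissue. The members are the genes whose symbol, with case ignored, starts with srsf, snrp, hnrnp, sf3a, sf3b, u2af or prpf. The rule found 77 of the 23608 Ensembl genes with a symbol, in a table of 28346 genes in all. The members form 6 classes: 18 SR protein genes, 12 snRNP protein genes, 24 hnRNP genes, 9 genes of the SF3A and SF3B complexes, 3 U2AF genes and 11 PRPF genes.

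The caudal hematopoietic tissue is a venous niche in the tail of the larva that houses blood stem and progenitor cells. Cells came from wild-type, untreated larvae at 5 days post fertilization that carried Tg(kdrl:GFP;lyve1b:DsRed), in which the kdrl promoter marks endothelium and the lyve1b promoter marks vein and lymphatic endothelium. Double-positive cells and cells with GFP alone were collected, and bulk mRNA libraries were made from 2 vein and 2 non-vein samples. The non-vein samples are called the control in their titles, and both groups carry the same transgenes. The labels do not say whether the samples of a group were independent pools, and the p-values speak of the spread between these libraries alone.

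Splicing is carried out by the spliceosome, which is built from small nuclear RNAs and their proteins. Most of these RNAs are bound by a ring of Sm proteins, and each is bound by proteins particular to it. U1 marks the 5′ splice site, U2AF and U2 with SF3A and SF3B mark the 3′ splice site and the branch point, and PRPF proteins act in the U4/U6.U5 tri-snRNP and in remodelling of the complex. SR proteins and hnRNPs bind the pre-mRNA itself and raise or lower the use of nearby sites, and many also act in the export, decay or translation of mRNA.

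The libraries held between 15672159 and 18862102 estimated counts. Levels are given as CPM (counts scaled to the library total with TMM factors), which serve to compare libraries, or as FPKM (fragments scaled to gene length and library total), which serve to compare genes. The sort on lyve1b was seen in that gene, whose CPM went from 53.7 and 217 (non-vein) to 1953 and 1636 (vein). Both groups were sorted for GFP driven by kdrl. The kdrl gene still differed, at 1998 and 2956 CPM (non-vein) versus 10504 and 7933 CPM (vein). Whether the groups held equal shares of endothelial cells was not tested. Among endothelial markers 9 of 14 tested genes were higher in vein by edgeR's quasi-likelihood test (adjusted p under 0.05, the threshold throughout), as were 7 of 9 vein and lymphatic markers. These counts include kdrl and lyve1b, whose promoters drove the reporters used in the sort. Of the endothelial markers 2 had a log2 fold (vein over non-vein) below 0, FLI1 at -0.38 and flt1 at -0.82, and neither was called. Over all genes tested, 4.11% were called higher in vein and 7.33% lower. Markers of other cells also moved with the groups. Of 19 blood progenitor and leukocyte markers, 11 were lower in vein, their summed share of counts was 0.425% to 0.519% in non-vein against 0.0633% to 0.0875% in vein, and gfi1aa had no count in either vein library. Of 28 tested proliferation genes, 21 were lower in vein, their share was 0.556% to 0.713% against 0.0738% to 0.0815%, and bub1 had no count in either vein library. Of the other marker lists, 0 of 7 tested erythroid and 0 of 3 neutrophil genes were called. The neutrophil share was 0.0748% and 0.0732% in non-vein against 0.0109% and 0.0652% in vein libraries 1 and 2, so the vein libraries differed from each other. The erythroid share was 0.00429% and 0.00750% against 0.00623% and 0.0143%. Of 4 tested macrophage genes, csf1rb was lower and 3 had a log2 fold (vein over non-vein) above 0, and 11 more had too few counts for a test. Of 8 tested stroma and muscle genes, 1 was called higher and 7 had a log2 fold above 0. The share of that list was 0.00756% and 0.0142% in non-vein against 0.0185% and 0.0496% in vein. The part of these cells in the results on splicing genes was not tested. In bulk libraries fewer cells of a type and less RNA per cell cannot be told apart.

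The question the design poses for these genes is whether their levels differ between the cells sorted as vein and those sorted as non-vein endothelium. Splicing genes stood lower in vein as a rule, and the 12 snRNP genes of the prefix snrp most uniformly: all fell, by 2.80-fold to 5.21-fold. Of the 7 snRNP genes named snrnp, which the rule does not take in, 1 was called lower (median log2 fold -0.78). Of the 75 members tested, 32 were lower in vein, 0 were higher and 43 were not called (edgeR). Over all 15953 genes tested, 7.33% were called lower and 4.11% higher. Of genes averaging 10 CPM or more, 12.8% were called lower and 8.11% higher, and this range held 71 of the members and all 32 of those called. Without a correction for the number of genes tested, 47 members had a p under 0.05, as did 30.1% of all genes. Both vein libraries lay below both non-vein libraries for 58 of the 75 members, against 33.1% of all genes, and above them for 3, against 29.0% of all genes. The log2 fold (vein over non-vein) was below 0 for 68 members, against 49.8% of all genes. The median member had a log2 fold of -1.15, with a range from -2.63 to 1.06, while the median of all genes was 0.01. From the uncorrected p on, these comparisons were not matched for level. The median tested member averaged 82.9 CPM and the median of all genes tested 9.63 CPM. Of the other 2 members, which had too few counts for a test, srsf10a had 5, 0, 3 and 2 counts in non-vein libraries 1 and 2 and vein libraries 1 and 2, and hnrnpa3 had 0, 7, 19 and 0.

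Members came to 2.19% and 1.86% of all counts in the non-vein libraries and to 0.862% and 0.818% in the vein libraries, a share 2.41-fold lower in vein. The exact 95% binomial intervals of these shares, which cover counting error only, had a half-width of at most 0.00676 percentage points. The share of the snRNP class was 0.451% and 0.430% in non-vein against 0.113% and 0.0957% in vein, 4.22-fold lower. The hnRNP genes took the largest share, 1.02% and 0.795% against 0.443% and 0.432%, which is 2.07-fold lower. SR protein genes held 0.382% and 0.344% against 0.183% and 0.170%, a 2.06-fold difference. The SF3 genes held 0.227% and 0.189% against 0.0830% and 0.0744%, and the PRPF genes 0.0972% and 0.0782% against 0.0350% and 0.0334%. The U2AF class was the smallest, at 0.0197% and 0.0266% against 0.00551% and 0.0127%. In each of the 6 classes both vein libraries lay below both non-vein libraries. A two-sided exact permutation test of 2 against 2 libraries cannot go below p = 0.33, so no share was tested on its own. The classes differed in spread as well as in median: log2 folds of snRNP genes ran from -2.38 to -1.49, whereas those of SR protein genes ran from -1.43 to 1.06 and those of hnRNP genes from -2.20 to 0.56. These ranges were not matched for level. The least abundant tested gene averaged 77.4 CPM among snRNP genes, 6.72 CPM among SR protein genes and 1.53 CPM among hnRNP genes. The differences between classes were not tested.

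**Figure D1:**
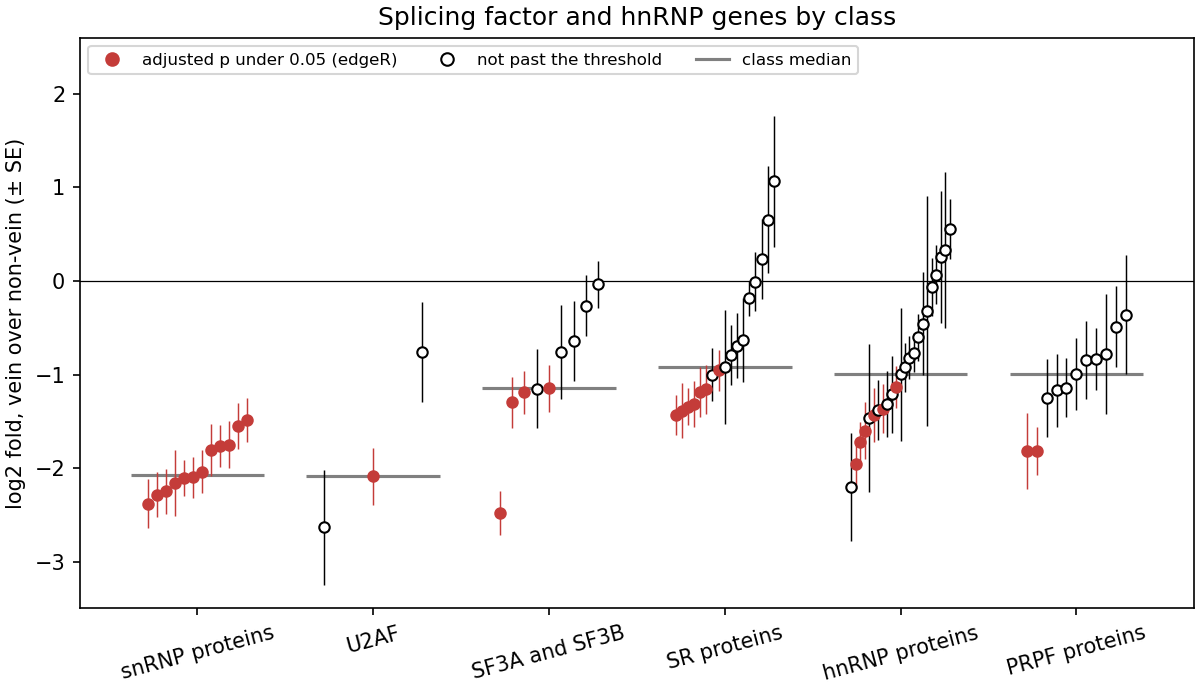
Log2 fold (vein over non-vein) of every tested splicing member, grouped by class, with filled points for genes called lower by edgeR, open points for genes not called, bars for ± 1 SE and a line at each class median. All 12 snRNP genes lie at or below -1.49, while the highest U2AF gene is at -0.76, the highest SF3 gene at -0.03 and the highest PRPF gene at -0.36, and SR protein and hnRNP genes reach above 0.

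**Figure D2:**
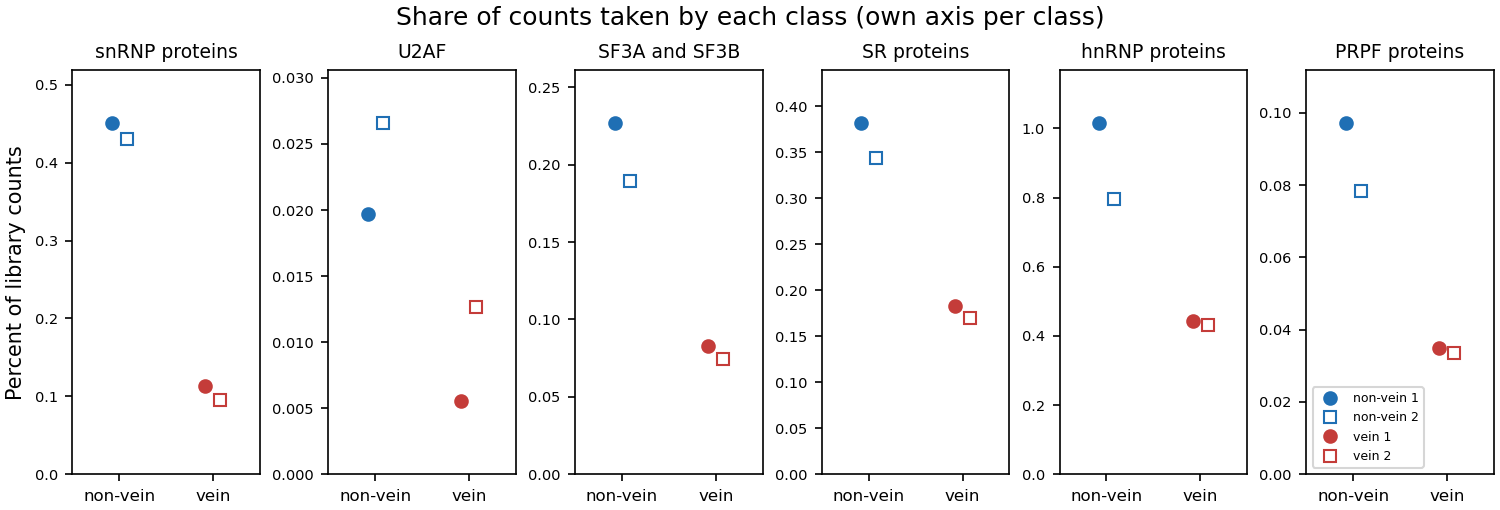
Percent of library counts taken by each class in each of the 4 libraries, 1 point a library, in a panel for each class with an axis of its own that starts at 0. The 2 vein points lie below the 2 non-vein points in every panel, and snRNP proteins go from 0.451% and 0.430% in non-vein to 0.113% and 0.0957% in vein.

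The Sm proteins are the common core of most spliceosomal snRNPs, and all 8 of their genes were called lower in vein, with a median log2 fold of -2.10. SNRPB, which encodes the Sm proteins B and B′, was the most abundant member of its class, at 1244 and 1187 FPKM in the non-vein libraries against 277 and 252 FPKM in the vein libraries. On the FPKM scale it ranked 113th and 126th among all genes in the non-vein libraries against 449th and 454th in the vein libraries. Its CPM were 1175 and 1095 against 273 and 254, a 4.31-fold lower level in vein (log2 fold -2.11, SE 0.19, edgeR adjusted p = 0.0121). The replicates lay close together and the groups far apart. SNRPD1 showed the largest fold of the class: 369 and 343 CPM in non-vein against 79.9 and 56.8 CPM in vein, 5.21-fold lower (log2 fold -2.38, SE 0.26, edgeR adjusted p = 0.0144). Levels of SNRPE were 506 and 473 CPM against 134 and 105 CPM (log2 fold -2.04, SE 0.23), and those of SNRPD2 601 and 532 CPM against 144 and 120 CPM (log2 fold -2.10, SE 0.22). Both were called at an edgeR adjusted p of 0.0144. The other ring genes moved alike: SNRPG had 337 and 375 CPM against 123 and 81.3 CPM (log2 fold -1.80), and SNRPF had 116 and 137 CPM against 35.5 and 21.0 CPM (log2 fold -2.16). Their vein libraries differed more from each other than those of SNRPB, and the groups still did not overlap.

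A pair of genes carries the name SNRPD3. ENSDARG00000076283 was the more abundant, at 819 and 658 FPKM in non-vein against 270 and 227 FPKM in vein, and its CPM were 2.80-fold lower (log2 fold -1.49, SE 0.24, edgeR adjusted p = 0.0216). ENSDARG00000013800 had 262 and 240 FPKM against 48.8 and 47.9 FPKM and its CPM were 4.87-fold lower (log2 fold -2.28, SE 0.24, edgeR adjusted p = 0.0144). The less abundant copy therefore had the larger fold, and its share of the counts of the pair was 29.0% and 32.0% in non-vein against 18.9% and 21.4% in vein. Estimated counts of close paralogs can share reads, so this split is uncertain, here and for every pair named further on.

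Proteins particular to U1 and U2 were lower as well. SNRPA, the U1 protein that binds a loop of U1 RNA, had 179 and 191 CPM in the non-vein libraries against 37.0 and 40.8 CPM in the vein libraries (4.75-fold lower, log2 fold -2.25, SE 0.24, edgeR adjusted p = 0.0144). SNRPC, the U1 protein that helps hold the 5′ splice site, had 168 and 143 CPM against 55.2 and 51.0 CPM (2.93-fold lower, log2 fold -1.55, edgeR adjusted p = 0.0207). The U2 partners SNRPA1 and SNRPB2 had log2 folds of -1.76 and -1.75, with 214 and 196 CPM against 59.4 and 61.4 CPM for SNRPA1 and 177 and 167 CPM against 45.5 and 56.9 CPM for SNRPB2. None of the 12 snRNP genes had a vein library within the range of its non-vein libraries. Of the 12 calls, 9 held in each fit that left out 1 library. That of SNRPB2 was lost without vein library 1 (edgeR adjusted p = 0.0513), that of SNRPC without vein library 1 (0.0549) or vein library 2 (0.0537), and that of SNRPD3 ENSDARG00000076283 without vein library 1 (0.0511) or vein library 2 (0.0580).

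**Figure D3:**
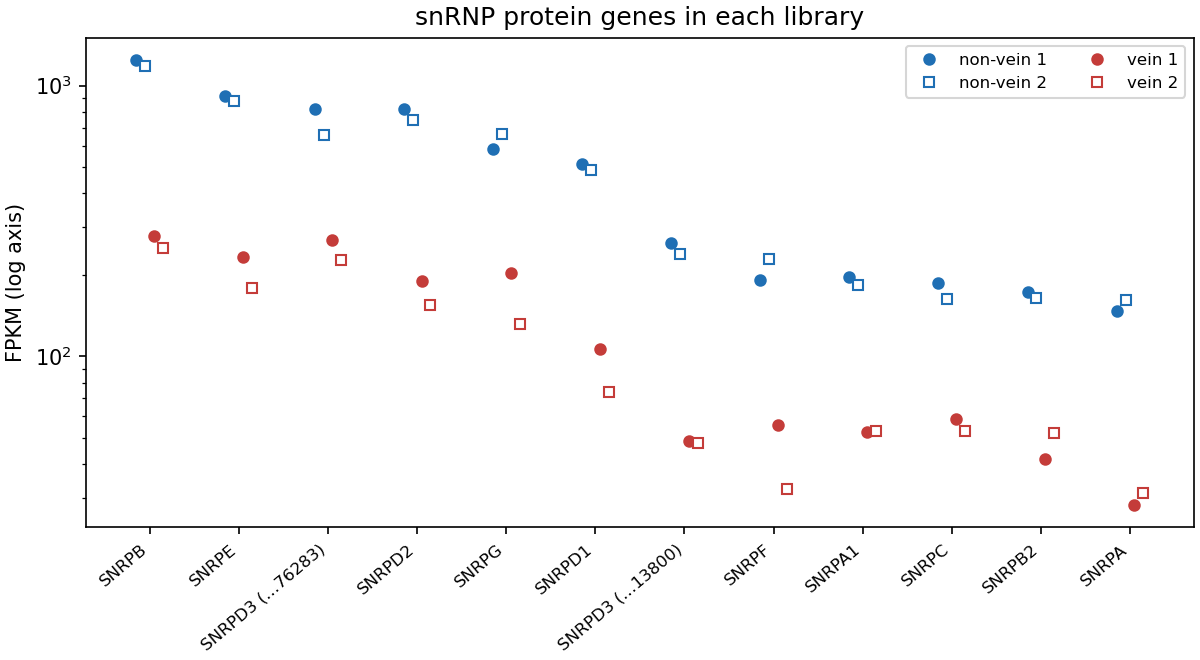
FPKM of the 12 snRNP genes in each of the 4 libraries, on a log axis, with 1 point a library. For every gene both vein points lie below both non-vein points, and SNRPB is the most abundant at 1244 and 1187 FPKM in non-vein against 277 and 252 FPKM in vein.

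Genes that act with U2 at the branch point and the 3′ splice site did not move as a block. SF3B4, an SF3B subunit that contacts the pre-mRNA near the branch point, had the lowest vein level relative to non-vein of all called members: 833 and 623 CPM against 135 and 126 CPM, 5.58-fold lower (log2 fold -2.48, SE 0.24, edgeR adjusted p = 0.0134). In FPKM it was second to SF3A2 in non-vein, at 611 and 467 against 645 and 486, and had 94.9 and 86.5 in vein. Its share of the FPKM of the class was 31.5% and 28.2% in non-vein against 12.8% and 13.0% in vein. SF3A2, an SF3A subunit, had 668 and 491 CPM against 246 and 262 CPM (log2 fold -1.19, SE 0.23, edgeR adjusted p = 0.0330). The small subunit SF3B5 had 211 and 191 CPM against 97.0 and 67.0 CPM (log2 fold -1.29, edgeR adjusted p = 0.0396), and SF3B2 had 196 and 149 CPM against 77.5 and 78.8 CPM (log2 fold -1.14, edgeR adjusted p = 0.0438). These 4 genes were the ones called, 1 of 3 with the prefix sf3a and 3 of 6 with the prefix sf3b. The SF3B subunit PHF5A lies outside the prefixes and was also called lower (log2 fold -1.74, edgeR adjusted p = 0.0166). Among all genes averaging 10 CPM or more, 12.8% were called lower.

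The other 5 genes of these prefixes were not called. SF3B1, the large scaffold that clamps the branch helix, had 74.3 and 79.1 CPM in non-vein against 79.2 and 48.3 CPM in vein (log2 fold -0.27, SE 0.33, edgeR adjusted p = 0.663), and the groups overlapped. SF3B6, the small subunit that reaches the branch point, had 117 and 157 CPM against 137 and 131 CPM, with vein inside the non-vein range (log2 fold -0.03, SE 0.25, edgeR adjusted p = 0.951). Its FPKM of 155, 214, 174 and 163 made up 8.02% and 12.9% of the class in non-vein against 23.4% and 24.4% in vein. SF3A1 had 59.9 and 63.0 CPM against 53.9 and 24.9 CPM (log2 fold -0.64), SF3A3 a log2 fold of -0.76 and SF3B3 one of -1.15. The call of SF3B4 held whichever library was left out. Those of SF3A2, SF3B5 and SF3B2 were each lost without non-vein library 1, vein library 1 or vein library 2, at edgeR adjusted p from 0.0506 to 0.141, so that the class count of 4 was 1 without any of those libraries and 4 without non-vein library 2.

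U2AF1, the small U2AF subunit that reads the AG at the 3′ splice site, had 77.1 and 83.2 CPM in non-vein against 16.6 and 21.1 CPM in vein. It was 4.25-fold lower (log2 fold -2.09, SE 0.30, edgeR adjusted p = 0.0184), and its call held in each fit that left out 1 library. The large subunit, which binds the polypyrimidine tract, has a pair of genes under the name U2AF2. ENSDARG00000012505 had 15.1 and 28.7 CPM against 3.53 and 3.51 CPM, a 6.21-fold difference that missed the threshold (log2 fold -2.63, SE 0.62, edgeR adjusted p = 0.0516). ENSDARG00000011740, the more abundant gene, had 101 and 143 CPM against 36.3 and 108 CPM, so its vein libraries lay far apart and one of them lay within the non-vein range (log2 fold -0.76, SE 0.53, edgeR adjusted p = 0.419). Without vein library 2 its log2 fold was -1.75 and it was called lower (edgeR adjusted p = 0.049).

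Among SR proteins 7 of 17 tested genes (41.2%) were lower in vein and 0 higher. Over all genes tested 7.33% were lower and 4.11% higher, and 12.8% were lower among those averaging 10 CPM or more. The calls took in genes of the export adaptors SRSF3 and SRSF7, which link spliced mRNA to the export receptor. The gene srsf7a had 617 and 570 FPKM in non-vein against 221 and 220 FPKM in vein and ranked first or second in the class in non-vein. Its CPM were 672 and 611 against 244 and 262, 2.54-fold lower (log2 fold -1.34, SE 0.19, edgeR adjusted p = 0.0183). SRSF3 ENSDARG00000059360 had 564 and 543 CPM against 185 and 226 CPM (log2 fold -1.43, SE 0.21, edgeR adjusted p = 0.0187). Its second gene of that name, ENSDARG00000025397, had 115 and 133 CPM against 60.2 and 48.4 CPM (log2 fold -1.19, edgeR adjusted p = 0.0447). In all 3 genes the vein libraries lay below the non-vein libraries with a clear gap.

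SRSF11, an SR-related protein, had 355 and 267 CPM against 134 and 116 CPM (log2 fold -1.31, SE 0.24, edgeR adjusted p = 0.0299). SRSF1 ENSDARG00000057691, a gene for a splicing activator that also acts in translation, had 131 and 130 CPM against 59.7 and 40.2 CPM (log2 fold -1.38, SE 0.29, edgeR adjusted p = 0.0396). For srsf10b, a gene for an SR protein that can repress splicing, the levels were 228 and 173 CPM against 98.5 and 80.7 CPM (log2 fold -1.16, edgeR adjusted p = 0.0466). The gene srsf2a, for an SR protein that activates exons, had 846 and 690 CPM against 435 and 357 CPM (log2 fold -0.95, SE 0.22, edgeR adjusted p = 0.0492). Each of these 7 calls was lost when at least 1 library was left out. The count of 7 was 2 without non-vein library 1, 5 without non-vein library 2, 1 without vein library 1 and 2 without vein library 2. The best supported, srsf7a and SRSF3 ENSDARG00000059360, were lost without vein library 1 alone, both at an edgeR adjusted p of 0.0634.

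Some SR genes stood apart from these. Levels of srsf5a were 448 and 405 CPM in non-vein against 378 and 372 CPM in vein, without overlap but close together (log2 fold -0.19, SE 0.19, edgeR adjusted p = 0.593). On the FPKM scale it made up 13.2% and 13.9% of the SR class in non-vein against 21.1% and 21.5% in vein. Its partner SRSF5 ENSDARG00000027734 had 71.6 and 84.2 CPM against 60.0 and 95.2 CPM (log2 fold -0.01, edgeR adjusted p = 0.994). Of the 3 members whose vein libraries both lay above the non-vein libraries, 2 were SR genes of low level. SRSF7 ENSDARG00000101057 had 4.02 and 4.67 CPM against 8.82 and 9.37 CPM (log2 fold 1.06, SE 0.70, edgeR adjusted p = 0.384). The gene srsf3a had 10.5 and 11.3 CPM against 22.8 and 11.5 CPM (log2 fold 0.65, SE 0.57, edgeR adjusted p = 0.520), so its gap rests on vein library 1.

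The hnRNP genes hold the most abundant members. Of 23 tested, 6 (26.1%) were lower in vein and 0 higher. Over all genes tested 7.33% were lower and 4.11% higher, and 12.8% were lower among those averaging 10 CPM or more. HNRNPAB, which binds single-stranded nucleic acid and mRNA, has a pair of genes that both fell. ENSDARG00000099865 had 1470 and 1153 CPM in non-vein against 386 and 410 CPM in vein, 3.29-fold lower (log2 fold -1.72, SE 0.21, edgeR adjusted p = 0.0157). ENSDARG00000007960 had 422 and 373 CPM against 162 and 201 CPM (log2 fold -1.13, SE 0.22, edgeR adjusted p = 0.0335). The CA-repeat binding regulator HNRNPL had 213 and 161 CPM against 46.8 and 49.3 CPM, 3.89-fold lower (log2 fold -1.96, SE 0.26, edgeR adjusted p = 0.0165). Its relative hnrnpl2 had 374.5 and 263 CPM against 131 and 117 CPM (log2 fold -1.36, SE 0.26, edgeR adjusted p = 0.0311). HNRNPU ENSDARG00000004735, for a protein that binds both RNA and chromatin, had 88.5 and 66.1 CPM against 26.1 and 24.9 CPM (log2 fold -1.60, SE 0.30, edgeR adjusted p = 0.0311). HNRNPA1L2, which the name table gives after a human relative of hnRNP A1, had 64.6 and 61.3 CPM against 22.7 and 23.9 CPM (log2 fold -1.43, edgeR adjusted p = 0.0370). In these 6 genes the groups did not overlap. The calls of HNRNPAB ENSDARG00000099865 and HNRNPL held in each fit that left out 1 library, and the other 4 were each lost in at least 3 such fits, at edgeR adjusted p from 0.0581 to 0.140. The count of 6 was 2 without non-vein library 1, 8 without non-vein library 2, 2 without vein library 1 and 4 without vein library 2.

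The most abundant splicing member of all was hnrnpa0l, for a relative of hnRNP A0, an RNA-binding protein of AU-rich messages. It had 2895 and 2215 FPKM in non-vein against 1461 and 1358 FPKM in vein, which ranked it 36th, 58th, 69th and 72nd among all genes of those libraries. Its CPM were 4263 and 3188 against 2246 and 2135, below non-vein in both vein libraries but not called (log2 fold -0.77, SE 0.21, edgeR adjusted p = 0.0709). It passed without non-vein library 2 (edgeR adjusted p = 0.011). It took 45.8% and 45.4% of the FPKM of the class in non-vein against 52.0% and 50.3% in vein. Next to it in level, hnrnpa0b had 1037 and 699 FPKM against 490 and 514 FPKM (log2 fold of CPM -0.82, edgeR adjusted p = 0.0785), and it too passed once non-vein library 2 was omitted (0.016).

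Other hnRNP genes that were not called ranged widely. The largest fold in the class was that of hnrnpr, with 142 and 161 CPM against 15.2 and 50.7 CPM (log2 fold -2.20, SE 0.58, edgeR adjusted p = 0.0662). Its vein libraries differed from each other by more than those of the called hnRNP genes, and without vein library 2 it was called at a log2 fold of -3.32. HNRNPK ENSDARG00000018914, for a poly(C)-binding protein, had 179 and 178 CPM against 50.4 and 86.4 CPM and just missed the threshold (log2 fold -1.38, edgeR adjusted p = 0.0507). HNRNPD, whose protein is also known as AUF1 and binds AU-rich elements in mRNA decay, was the one hnRNP gene with both vein libraries above non-vein: 26.0 and 28.9 CPM against 42.1 and 38.8 CPM (log2 fold 0.56, SE 0.32, edgeR adjusted p = 0.316). HNRNPM had 44.9 and 48.6 CPM against 57.8 and 40.3 CPM, and hnrnpa0a 97.6 and 72.0 CPM against 94.6 and 67.2 CPM, and in both the groups overlapped.

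Of the 11 PRPF genes 2 (18.2%) were lower in vein. Over all genes tested 7.33% were lower, and 12.8% of those averaging 10 CPM or more. Whether the class departs from that share was not tested. PRPF19, the ubiquitin ligase that gives its name to the PRP19 complex of the active spliceosome, had 259 and 239 CPM in non-vein against 81.3 and 60.0 CPM in vein, 3.53-fold lower (log2 fold -1.82, SE 0.26, edgeR adjusted p = 0.0176). Its call held whichever library was left out. The PRPF proteins of the tri-snRNP were not called. PRPF8, the scaffold of the catalytic centre, had 76.9 and 55.8 CPM against 27.9 and 32.3 CPM (log2 fold -1.14, SE 0.32, edgeR adjusted p = 0.0749). PRPF4 had 102 and 73.6 CPM against 49.2 and 24.7 CPM (log2 fold -1.25), and PRPF31 38.3 and 42.2 CPM against 22.6 and 22.5 CPM (log2 fold -0.84). For these 3 genes the groups did not overlap.

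Single libraries decided the value of other PRPF genes. The U1-associated PRPF39 had 260 and 124 CPM against 79.0 and 91.8 CPM. Its log2 fold of -1.17 became -0.54 without non-vein library 1. Leaving out non-vein library 2 gave -1.61, and it was then called (edgeR adjusted p = 0.016). PRPF6, which bridges parts of the tri-snRNP, had 33.9 and 40.8 CPM against 9.27 and 34.1 CPM, and its log2 fold of -0.78 became -2.01 without vein library 2 and -0.13 without vein library 1. PRPF3 had 10.2 and 13.0 CPM against 6.20 and 11.9 CPM (log2 fold -0.36, SE 0.64), with overlapping groups and a sign that turned on the FPKM scale, to 0.23 for log2(FPKM + 1).

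Across the classes 14 members kept their call in the 17 settings that were run with another test, scaling, filter, unit or set of libraries and in a test against a 1.5-fold change. They were 9 of the 12 called snRNP genes (SNRPB, SNRPD1, SNRPD2, SNRPD3 ENSDARG00000013800, SNRPE, SNRPF, SNRPG, SNRPA and SNRPA1), HNRNPAB ENSDARG00000099865, HNRNPL, SF3B4, U2AF1 and PRPF19, and 0 of the 7 called SR genes. Every member call lost in any setting was also lost in a fit that left out 1 library. How many calls over all genes were kept in this way was not counted, so these numbers have no share beside them.

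Paralogs with one name, or with names that differ by a last letter, did not always keep their proportions. SRSF1 ENSDARG00000057691 held 82.2% and 80.2% of the counts of the SRSF1 pair in non-vein against 55.9% and 62.4% in vein, while its partner ENSDARG00000017843 stood at 28.5 and 32.0 CPM in non-vein against 47.2 and 24.2 CPM in vein. For HNRNPU, the called gene held 91.5% and 84.3% in non-vein against 59.2% and 79.1% in vein, and its partner ENSDARG00000015206 had 8.26 and 12.3 CPM against 18.0 and 6.57 CPM. In both pairs the minor gene overlapped between the groups. HNRNPL and hnrnpl2 divided their counts so that hnrnpl2 held 63.7% and 62.0% in non-vein against 73.6% and 70.3% in vein. Among the A0 genes hnrnpa0l held 70.1% and 71.2% in non-vein against 71.9% and 69.3% in vein, and srsf5a held 86.2% and 82.8% of the SRSF5 pair in non-vein against 86.3% and 79.6% in vein. The shares of hnrnpa0l and srsf5a overlapped between the groups, and those of hnrnpl2 did not. The exact 95% binomial intervals of the paralog shares given here reached at most 3.78 percentage points to either side.

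**Figure D4:**
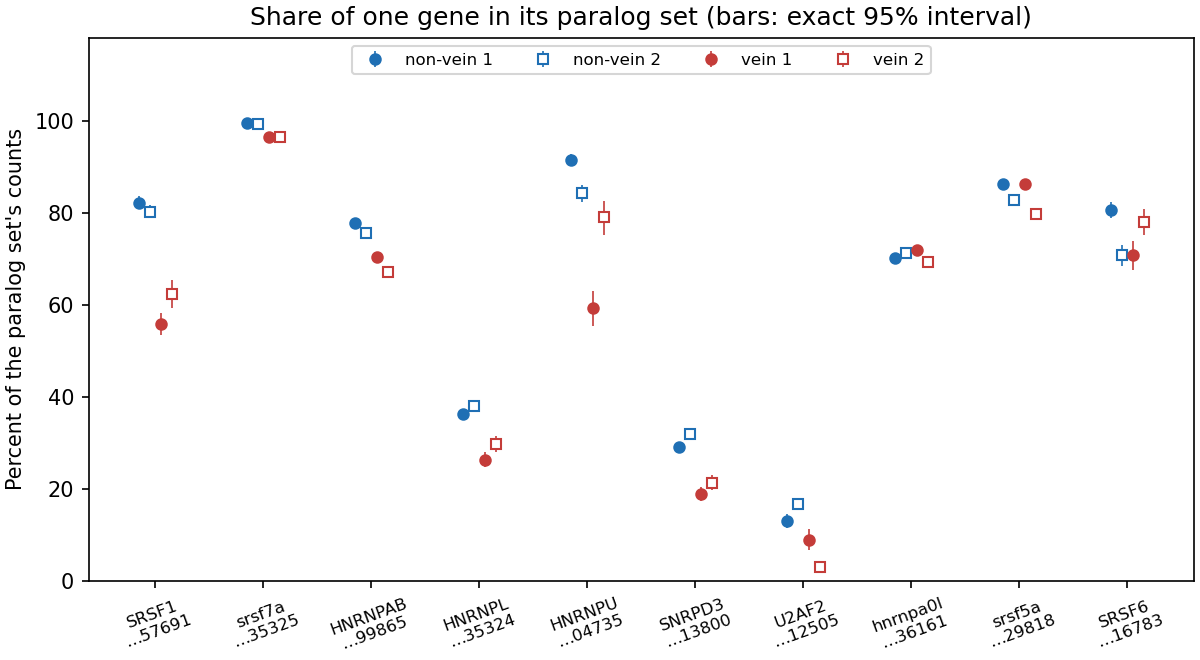
Percent of the counts of a paralog set held by 1 gene in each library, with exact 95% binomial intervals, for 10 genes chosen after their values were seen. The shares of SRSF1 ENSDARG00000057691 (82.2% and 80.2% in non-vein, 55.9% and 62.4% in vein) and 6 further genes do not overlap between the groups, while those of hnrnpa0l, srsf5a and SRSF6 do. As the genes were picked, this count does not give the rate over all paralog sets. Of the sets not drawn, some overlapped (HNRNPK and srsf2) and others did not.

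Splicing genes outside the prefixes were counted from 6 lists. Of 138 tested genes, 29 were lower in vein and 0 higher (edgeR), with a median log2 fold of -0.81, beside 7.33% called lower and a median of 0.01 over all genes. The LSm ring, which binds U6 RNA and takes part in mRNA decay, had 4 of 9 genes lower and a median of -1.49. Its gene LSM7 had 495 and 489 CPM in non-vein against 176 and 174 CPM in vein (log2 fold -1.49). The SMN complex and its partners, which load Sm proteins onto RNA, had 2 of 11 lower with a median of -1.37. The exon junction complex and mRNA export genes had 6 of 24 lower with a median of -1.04. Among these, DDX39A, an export helicase, had 1054 and 696 CPM against 122 and 156 CPM (log2 fold -2.65), and the junction protein gene MAGOHB had 312 and 293 CPM against 72.5 and 81.6 CPM (log2 fold -1.97). The list of helicases and catalytic core factors, which also takes in other spliceosome factors, had 10 of 41 lower with a median of -0.73. Its lowest adjusted p was that of PLRG1, a gene of the PRP19 complex, at 71.6 and 76.2 CPM against 11.1 and 12.9 CPM (log2 fold -2.62). PHF5A, the SF3B subunit outside the prefixes, came next at 169 and 157 CPM against 50.2 and 47.6 CPM (log2 fold -1.74).

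Among the lists outside the prefixes, the medians closest to 0 were those of other alternative splicing regulators and of kinases and phosphatases of SR proteins. The SR protein and hnRNP classes are not part of this comparison. Beside the counts given here, 7.33% of all genes tested were called lower, and 12.8% of those averaging 10 CPM or more. Other alternative splicing regulators had 6 of 41 tested genes lower and a median of -0.40, with ILF2 at 457 and 426 CPM against 97.6 and 96.4 CPM (log2 fold -2.19). Kinases and phosphatases of SR proteins had 1 of 12 lower and a median of 0.06. The one called was srpk1b, for an SR protein kinase, at 50.9 and 52.1 CPM against 19.5 and 15.7 CPM (log2 fold -1.55, edgeR adjusted p = 0.0409). Of the 7 genes named snrnp, which the prefix snrp does not take in, 1 was lower: SNRNP40, a U5 protein, at 209 and 176 CPM against 58.1 and 37.9 CPM (log2 fold -2.01). The median of the 7 was -0.78.

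Ribosomal proteins, another large class of RNA-binding proteins, moved in the same direction. Of 83 cytosolic ribosomal protein genes, 71 were lower in vein, their median log2 fold was -1.15, as for the splicing members, and they took 8.32% and 9.32% of counts in non-vein against 3.60% and 3.62% in vein. Computed without haemoglobin, mitochondrial and ribosomal protein genes, the median of the splicing members was -1.17.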

How the data were processed

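Bulk RNA-seq libraries of 2 vein and 2 non-vein samples were used. One table deposited by the authors gives estimated counts: per the file headers its columns carry FPKM names, yet every value is whole, and the counts were used unchanged. The other holds FPKM deposited by the authors, used to compare genes and for alternatives. Build GRCz11, HISAT2, RSEM, StringTie 1.3.1, DESeq2, Bowtie2 2.2.8 and fastp 0.18.0 stand in the submitters' processing notes, without order. Use of strand in counting: not given in the sources used here. All 8 value columns were mapped by name, and no coordinates or sequences are printed.

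Symbols came from a gene name table that matched 23608 of 25522 Ensembl identifiers. It gives some paralogs the same human-style name, and the identifier is then added. Genes were filtered with filterByExpr at a minimum count of 10, TMM-scaled and tested across the whole table with edgeR 4.0.16 in R 4.3.3 (legacy quasi-likelihood, group only), with Benjamini-Hochberg adjustment at 0.05. CPM use the TMM factors and are relative to the library. SE is the log2 fold divided by the square root of F. The common biological coefficient of variation was 0.699. In leave-one-out fits the lone library of a group is assumed to vary like the other group.

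Named in each class were the 3 most abundant genes by FPKM and up to 4 called genes by adjusted p. Also named were the extremes of log2 fold at 10 CPM or more, and paralogs of these genes. Other members, among them srsf10b, SF3B1, SF3A1, PRPF8, PRPF6 and HNRNPK, were added after their values were seen. Members, lists and tests were chosen with earlier results of these data known. A design note counted the 7 snrnp genes as members; the prefix rule does not, so they are given apart. The values of 1 called PRPF gene are not reported here. Alternatives were DESeq2 1.42.0, limma 3.58.1 (voom on counts, trend on log2 FPKM), other scalings, filters, dispersion methods, a replicate block, a 1.5-fold test and each library left out. The main edgeR test, DESeq2 and voom were tried on simulated counts, where DESeq2 called more unchanged genes than edgeR or voom. The other alternatives were not.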

Additional observations from a re-analysis of the deposited data

How the results depend on the processing

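No setting called a splicing member higher in vein, and 65 to 69 tested members had a log2 fold under 0 in every setting. The 32 members called lower became 19 in a test against a 1.5-fold change, 15 to 32 with 1 library left out (19 without non-vein library 1, 15 without vein library 1, 21 without vein library 2) and 26 to 44 otherwise; with the 7 snrnp genes, added after seeing the data, there were 33. The labels do not say whether replicate numbers pair the samples. Deviations of same-numbered libraries had a correlation of 0.0441 over all genes, which cannot decide this with 2 libraries a group. With a replicate block, which the range of 26 to 44 leaves out, 21 members and 716 genes were lower. Over all genes, the 1170 lower became 2319 (DESeq2), 1881 (edgeR version 4 method), 2137 (log2(FPKM + 1)), 1769 (log2(FPKM + 0.1)) and 622 to 1313 with 1 library left out. The 656 higher became 1618 (DESeq2), 1092 (no filter), 1332 (edgeR version 4 method), 1026 (limma-voom), 1163 (log2(FPKM + 1)), 333 (the same, no filter) and 408 to 942. The share of calls that were lower, 64.1%, was 73.6% for log2(FPKM + 1) with no filter and 50.5% without non-vein library 2. In the other splicing lists, 29 lower became 53 (DESeq2), 47 (log2(FPKM + 1)) and 14 to 28, and 0 higher became 1 (DESeq2). The cause of these moves was not tested.

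With 1 library left out, median log2 folds ran from -1.34 to -0.95 (all members), -2.17 to -1.90 (snRNP), -1.10 to -0.67 (hnRNP), -1.34 to -0.93 (SF3) and -2.28 to -1.93 (U2AF). On log2(FPKM + 0.1) they were -1.21 for hnRNP and -1.17 for PRPF. That scale moved the median of all genes by -0.15, log2(FPKM + 1) by -0.10 and leaving out vein library 2 by -0.29. Class shares from summed FPKM gave log2 ratios of -0.90 (SR), -1.92 (snRNP), -1.21 (SF3) and -1.18 (PRPF), against -1.04, -2.08, -1.40 and -1.35 from counts. SF3B6 reversed to 0.0020 with a filter of 50 counts and ran from -0.23 to 0.19 with 1 library left out. PRPF3 reversed to 0.23 (log2(FPKM + 1), with and without the filter), 0.27 (log2(FPKM + 0.1)) and 0.031 (without vein library 1).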
